A study of Caenorhabditis elegans with 2 samples.

Results

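The 9 genes described here are tir-1, nsy-1, sek-1, pmk-1, mnk-1, tol-1, trf-1, pik-1 and ikb-1, the TIR-domain, Toll and p38 kinase pathway genes of Caenorhabditis elegans, out of 19973 protein-coding genes on the nuclear chromosomes. They were chosen by name with the peak signals of this study known, so their signals are given as a description and without a test. The data come from ChIP-seq, in which DNA bound by a protein is immunoprecipitated from chromatin and sequenced; the protein was NHR-2, a DNA-binding transcription factor of the nuclear receptor family, in whole embryos of mixed stages and mixed sex. There is 1 group of 2 libraries, biological replicates 1 and 2, both from strain OP99, which carries the unc-119(ed3) allele on chromosome III and the integrated transgene wgIs99. The labels call the precipitated protein an eGFP fusion of NHR-2 and name nhr-2 as the antibody target. The control library they name was not analysed here, nor was any library without the transgene. Signals come from cells of the whole embryo, so a site used in few cells cannot be told apart from a weak site used in many.

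TIR-1, the worm relative of vertebrate SARM1, is an adaptor with a TIR domain that can cleave NAD. It acts on NSY-1, a kinase of the ASK type, which activates SEK-1, which in turn activates PMK-1, a p38 MAP kinase. The cascade is known for immune defence in the intestine and, through TIR-1, NSY-1 and SEK-1, for the left-right choice of the AWC olfactory neurons. TOL-1 is the only Toll receptor of the worm, and TRF-1, PIK-1 and IKB-1 are its relatives of TRAF, IRAK/Pelle and IκB, the parts that link Toll to NF-κB in flies and mammals. MNK-1 belongs to the kinases that MAP kinases activate and that phosphorylate the cap-binding translation factor eIF4E.

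The sequences of 3 summits are shown, each from 75 bp before to 75 bp after the strongest peak of its gene that lies outside annotated untranslated regions; a summit is the base at which the authors placed the peak's maximum. They are from build WBcel235 (ce11), plus strand, and differ in what they hold. Capitals mark the words searched for on either strand, described further below: in the mnk-1 window an E-box, CACGTG, and TGACCC at 2 places, the reverse complement of GGGTCA; in the sek-1 window overlapping copies of GAGAGA; and in the tir-1 window TCTCTC, the reverse complement of GAGAGA.
mnk-1 intron, chrII:10549458-10549608: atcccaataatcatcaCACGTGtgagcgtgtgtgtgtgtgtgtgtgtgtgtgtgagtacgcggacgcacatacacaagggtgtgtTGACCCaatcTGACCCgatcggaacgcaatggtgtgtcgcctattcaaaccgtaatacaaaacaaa
sek-1 downstream, chrX:7823205-7823355: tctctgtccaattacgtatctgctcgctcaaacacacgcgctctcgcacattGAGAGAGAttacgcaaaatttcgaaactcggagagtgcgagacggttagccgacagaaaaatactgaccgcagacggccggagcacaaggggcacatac
tir-1 intron, chrIII:3876312-3876462: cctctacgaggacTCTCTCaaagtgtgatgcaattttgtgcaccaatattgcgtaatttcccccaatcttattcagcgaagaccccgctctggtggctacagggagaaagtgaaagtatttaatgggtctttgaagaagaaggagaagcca

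NHR-2 peaks lay at 4 of the 9 genes, and the others had only weak regions. Peaks here are the 1861 regions that the authors kept after thresholding by the irreproducible discovery rate (IDR), a comparison of ranks between replicates; a gene was counted when a summit lay in its body or within 5 kb on either side. By that rule tol-1 had 7 summits, tir-1 3, mnk-1 3 and sek-1 2, and nsy-1, pmk-1, trf-1, pik-1 and ikb-1 had 0. Of all protein-coding genes, 15.7% had at least 1 summit by the same rule. Nothing is read from the members' share, because the genes were chosen with these peaks known.

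**Figure D1:**
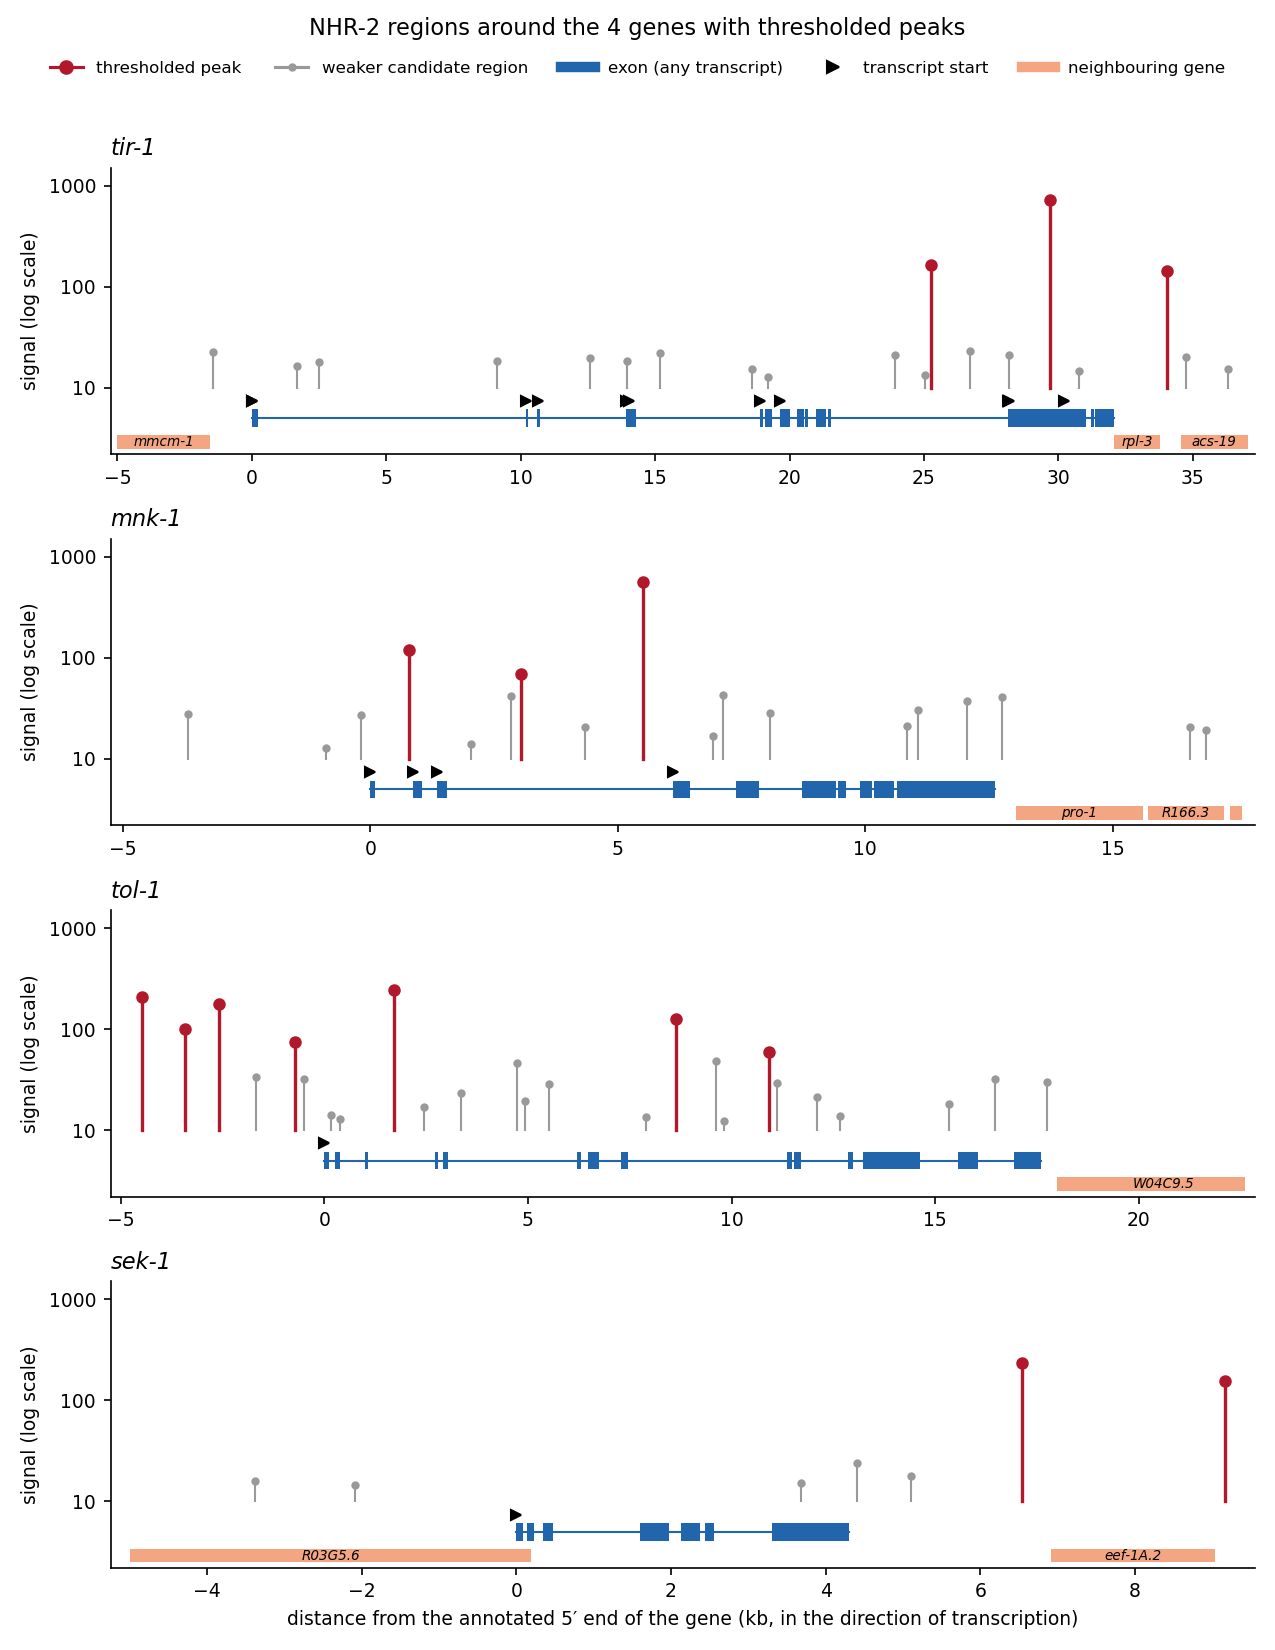
Candidate regions around tir-1, mnk-1, tol-1 and sek-1: the horizontal axis is the distance from the annotated 5′ end in kb, in the direction of transcription, and the vertical axis is the authors' signal on a log scale; red stems are thresholded peaks and grey stems weaker regions. The strongest peaks of tir-1 and mnk-1 stand just before an internal transcript start (arrowheads), the 7 peaks of tol-1 are spread from upstream sequence into the gene body, and both peaks of sek-1 are beside the next gene, eef-1A.2.

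The strongest of the 15 summits lay near the 3′ end of tir-1, WBGene00006575, on chromosome III from 3869590 to 3901642 on the minus strand. The peak ran from 3871762 to 3872186 with its summit at 3871952, and its signal, the authors' enrichment score for a region, was 726 in the list made from both replicates, where it ranked 12 of 30000 candidate regions. The signal was 400.1 in replicate 1 and 327 in replicate 2, at ranks 11 and 14. Both replicates placed it close to the top of their lists. Signals are not levels that can be compared between lists, so ranks are used for that.

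This tir-1 summit was exonic through only 1 of the 13 annotated protein-coding transcripts. That transcript, F13B10.1d.3, has the summit in exon 1, which is 2872 bp long, in its 5′ untranslated part. In 11 other transcripts the summit was in an intron, and it lay 525 bp upstream of the start of the shortest form, F13B10.1h.1. Counting coding exons alone, or the transcript with the longest coding sequence alone, the summit was intronic. It was 29690 bp from the 5′ end of the gene, while the nearest 5′ end of another gene, that of the ribosomal protein gene rpl-3, was 4098 bp away.

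The 2 other summits at tir-1 were weaker. A summit at 3876387, in an intron of 10 transcripts, had a signal of 165 and ranked 317, with ranks of 290 in replicate 1 and 413 in replicate 2. It lay 2876 bp upstream of the next internal start, that of F13B10.1b.1. A summit at 3867588, downstream of tir-1, had a signal of 143 at rank 403, with ranks 473 and 404 in replicates 1 and 2. It lay 266 bp upstream of rpl-3, in whose promoter window it fell. No thresholded summit was within 5 kb upstream of the first tir-1 exon.

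At mnk-1, WBGene00011304, on chromosome II from 10542421 to 10555044 on the minus strand, all 3 summits were in introns of at least 1 transcript. The strongest, at 10549533 in a peak from 10549339 to 10549771, had a signal of 566 and ranked 19. In replicate 1 its signal was 331 at rank 16, and in replicate 2 it was 233 at rank 27. As at tir-1, it stood before an internal start: the summit was 5511 bp inside the gene and 610 bp upstream of the start of the short transcript R166.5a.1. The E-box and the GGGTCA words in its printed sequence lay on opposite sides of the summit. The E-box began 59 bp before it, and the reverse complements of GGGTCA began 10 and 20 bp after it.

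The other mnk-1 summits were near the 5′ end and in between. The summit at 10554270 had a signal of 119 at rank 557 and ranked 471 and 690 in replicates 1 and 2. It lay 774 bp inside the gene and 87 bp upstream of the start of transcript R166.5b.2. Only 1 of the 4 protein-coding transcripts had it in an intron, and it was upstream of the transcript with the longest coding sequence. The summit at 10552007 had a signal of 69.6 at rank 1231, and it ranked 1189 in replicate 1 and 2426 in replicate 2. In replicate 2 it was thus weaker than the 1861 strongest regions of that list, and no transcript start was within 3 kb downstream of it, the next being 3084 bp away.

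The 7 summits at tol-1, WBGene00006593, were spread over 15.4 kb on chromosome I, where the gene runs from 444003 to 461605 on the plus strand. Of all protein-coding genes, 9 (0.0451%) had 7 or more summits in the body or within 5 kb. Within the gene body alone tol-1 had 3, as did mnk-1, and 55 genes had at least that many. Nothing is read from these counts, because tol-1 was chosen with its peaks known. The strongest of the 7 tol-1 summits lay 1720 bp inside the gene at 445723, in an intron, with a signal of 242 at rank 156. Its summit was at the same base in both replicates, with signals of 113 and 129 and ranks of 223 and 121 in replicates 1 and 2. Unlike most of the 15, it ranked higher in replicate 2.

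Upstream of tol-1 there were 4 summits. They were 4488, 3433, 2595 and 728 bp from the 5′ end, with signals of 206, 100.4, 178 and 74.6. For each of them the nearest protein-coding 5′ end was that of tol-1 itself, and no other protein-coding gene lay within the 5 kb upstream. The summit at 728 bp was the only 1 of the 15 in the promoter window of a member, which begins 1000 bp before the gene's 5′ end and ends 200 bp past it.

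Further inside tol-1 there were 2 more intronic summits. That at 8648 bp from the 5′ end had a signal of 125 and ranked 396 in replicate 1 and 702 in replicate 2. That at 10913 bp had a signal of 59.7, the lowest of the 15, and was nearest to the 5′ end of W04C9.4, 7079 bp away. It ranked 1903 in replicate 1 and 2103 in replicate 2, outside the 1861 strongest regions of both. The strongest region at any of the 9 genes that missed the threshold was also in tol-1, with a signal of 48.2 at rank 2065, and the weakest thresholded peak anywhere had 51.6.

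At sek-1, WBGene00004758, on the X chromosome from 7816734 to 7821036 on the plus strand, both summits lay downstream of the gene, beside eef-1A.2, which encodes a form of translation elongation factor 1A. The stronger, at 7823280, had a signal of 235 at rank 162, and ranked 149 and 207 in replicates 1 and 2. It was 374 bp upstream of the 5′ end of eef-1A.2 and 6546 bp from that of sek-1. The weaker, at 7825903, had a signal of 155 at rank 349 and was past the 3′ end of eef-1A.2, in the noncoding RNA gene C54D2.14. Neither summit was within 2 kb of the sek-1 gene body. The strongest region inside sek-1 or upstream of it was not in the thresholded list.

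By position, 1 of the 15 summits was in an exon of its gene, 7 were in introns, 4 upstream and 3 downstream. Over the whole list 98 nuclear summits were in exons and 561 in introns of protein-coding genes, so 14.9% of those in gene bodies were exonic. The 1 of 8 at the members is near that share. In 6 cases the nearest protein-coding gene's 5′ end belonged to another gene: rpl-3 for the 3 summits at tir-1, eef-1A.2 for both at sek-1 and W04C9.4 for 1 at tol-1. Of the 8 summits inside the genes, 3 lay in the promoter window of an annotated transcript start: the strongest summits of tir-1 and mnk-1, and the mnk-1 summit near its second start. For comparison, among 578 summits in the whole list that lay in a protein-coding gene body outside any gene's promoter window, 112 (19.4%) were in the window of an internal transcript start. Counted per gene, 1 of the 9 genes had a summit in the window of its 5′ end, against 4.16% of all protein-coding genes. With every transcript start, 3 of the 9 genes, tol-1, tir-1 and mnk-1, had such a summit, against 4.62% of all. A gene with more starts has more such windows, and tir-1 had 11 distinct starts, mnk-1 4 and tol-1 1. Nothing is read from these counts, because the genes were chosen with their peaks known. In C. elegans many messenger RNAs receive a spliced leader, so an annotated transcript start is often not the base where transcription begins.

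All 15 peaks had an overlapping region in both replicates, and 13 of them ranked within the first 1861 in each. The same shares were not computed over the whole list, so nothing is read from these counts. Ranks of the 15 peaks ran from 11 to 1903 in replicate 1 and from 14 to 2426 in replicate 2. The median distance between the series summit and the replicate summit was 3 bp for replicate 1 and 11 bp for replicate 2, and the largest distances were 47 and 135 bp. The thresholded list was made by IDR from the same libraries, so the overlap is no separate support. How the authors applied IDR is not given in the sources used here. Of the 15 peaks, 6 were 380 bp wide, the width of 75.7% of nuclear peaks, and the other 9 ran from 109 to 433 bp.

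**Figure D2:**
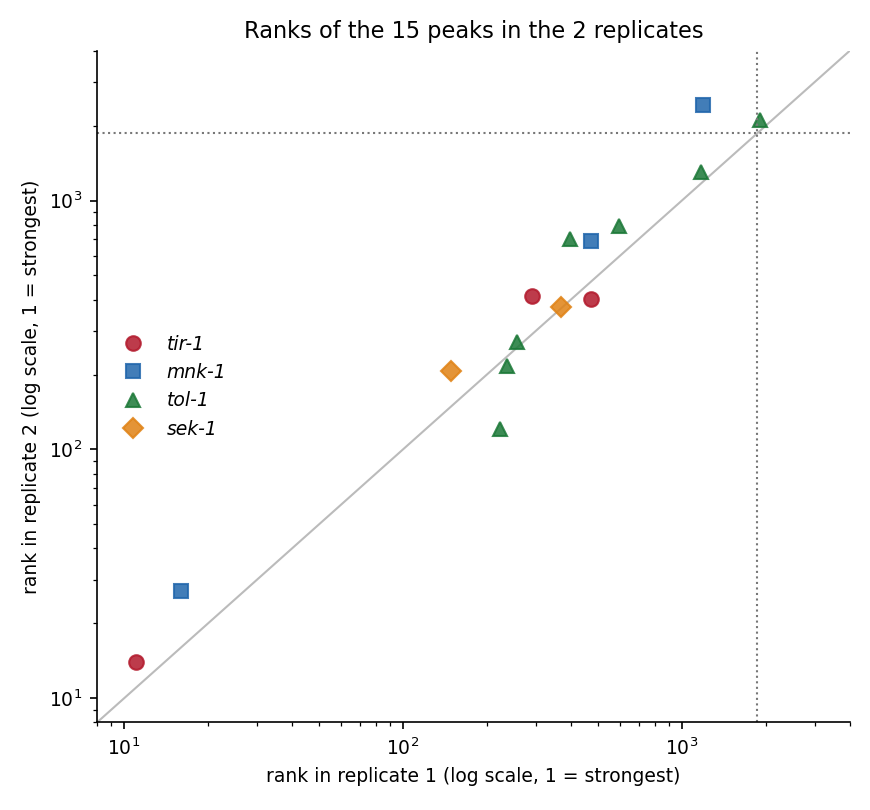
Rank of each of the 15 peaks in the candidate list of replicate 1 (horizontal, log scale) and of replicate 2 (vertical, log scale), by gene; 1 is the strongest region, the grey line marks equal ranks and the dotted lines stand at rank 1861. The 15 points run from ranks 11 and 14 for the tir-1 peak to ranks 1903 and 2103 for the last tol-1 peak, and 2 lie past a dotted line.

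The kinase gene nsy-1 and the p38 MAP kinase gene pmk-1 had no thresholded peak. At nsy-1, WBGene00003822, on chromosome II from 5022757 to 5029999, there were 2 candidate regions, and the stronger had a signal of 13.4 at rank 25544 of 30000, upstream of the gene. At pmk-1, WBGene00004055, on chromosome IV from 8148794 to 8151266, the strongest of 4 regions had a signal of 17.5 at rank 15313. These are in the weaker part of the candidate list, and both replicates had their strongest nsy-1 region at another place of the window. In replicate 1 that of nsy-1 was 9982 bp downstream of its 5′ end, and in replicate 2 it was 82 bp downstream. Relative to the pmk-1 5′ end, with minus for upstream, the strongest region was at -2484 bp in the series list. It was at -2266 bp in replicate 2 and at 3323 bp in replicate 1.

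In the series list, the parts that act below Toll in other animals had somewhat stronger regions that also missed the threshold. In replicate 1, however, the strongest pik-1 region ranked 5793, below that of pmk-1 at 4556. At trf-1, WBGene00006612, on chromosome III from 13430462 to 13433438, the strongest region had a signal of 31.1 at rank 4119, downstream of the gene. In both replicates the strongest trf-1 region was upstream of the gene instead. At pik-1, WBGene00004029, on chromosome IV from 13416041 to 13422391, it had a signal of 28.9 at rank 4788, in sequence downstream of the gene. At ikb-1, WBGene00002069, on chromosome I from 9685398 to 9688653, it had a signal of 24.9 at rank 6540, also downstream. From the 5′ end, the strongest pik-1 region lay 8492 bp away in the series list, 4937 bp in replicate 1 and 8467 bp in replicate 2. That of ikb-1 lay 5647 bp away in the series list and in replicate 2, but 3517 bp in replicate 1. The receptor gene tol-1 thus had 7 thresholded summits, and trf-1, pik-1 and ikb-1 had 0. Over the 5 genes without a peak, candidate regions numbered 24 in 72.3 kb, or 3.32 per 10 kb, against 2.99 per 10 kb over the nuclear genome.

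**Figure D3:**
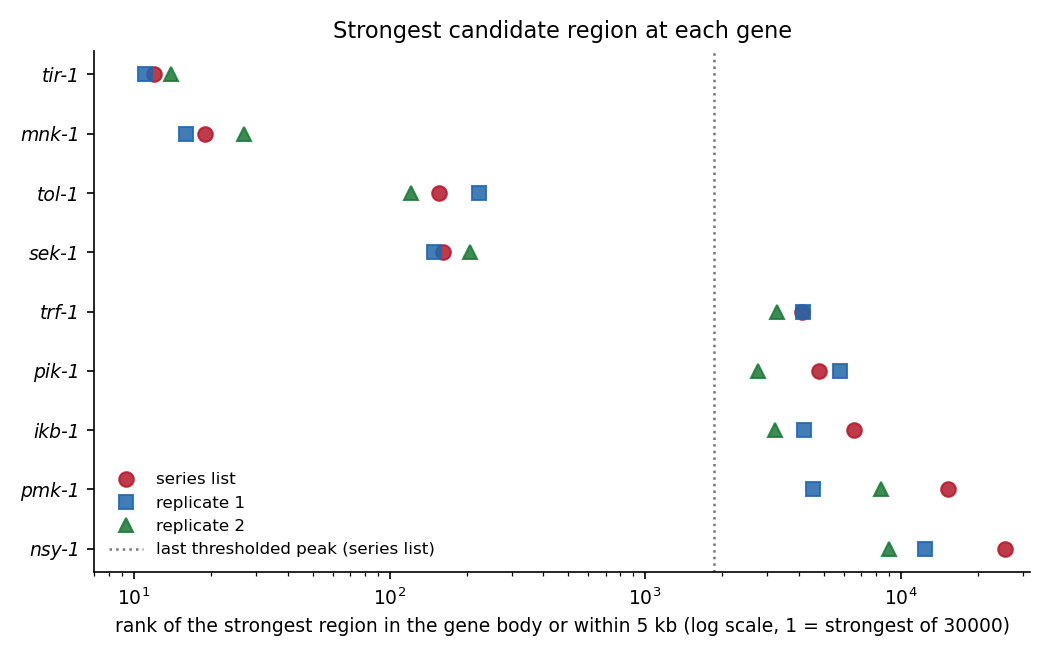
Rank of the strongest candidate region in the body or within 5 kb of each of the 9 genes (log scale, 1 is the strongest of 30000) in the series list, replicate 1 and replicate 2; the dotted line is the last thresholded peak, at rank 1861. The points of tir-1, mnk-1, tol-1 and sek-1 lie left of the line in all 3 lists and those of the other 5 genes lie right of it in all 3.

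Candidate regions include the thresholded peaks, so their density is raised at genes with peaks by construction. Counted that way, the 4 genes with peaks had the most candidate regions per length apart from pik-1, which had 5.50 per 10 kb. The order without the thresholded peaks was not examined. The values were 9.06 per 10 kb at tol-1, 7.96 at mnk-1, 4.89 at sek-1 and 4.52 at tir-1. In all, the 9 windows held 93 candidate regions, 5.20 per 10 kb, and 78 of them missed the threshold. Of these 78, 35 (44.9%) overlapped a region in both replicates, against 39.3% of the 28139 nuclear regions that missed it. Thresholded summits numbered 83.9 per Mb of the 179 kb in the windows, against 18.4 per Mb of the nuclear genome. Without tir-1 and mnk-1 the 7 other windows had 78.8 per Mb, of which tol-1 gave 7 of 9 summits. Nothing is read from these densities, because the genes, tol-1 included, were chosen with their peaks known.

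Longer windows held summits more often over all genes. Of genes with windows from 20 to below 30 kb, 205 of 800 (25.6%) had a summit, and of those at 30 kb or more, 69 of 198 (34.8%). The window of tir-1 was 42.1 kb, that of tol-1 27.6 kb and that of mnk-1 22.6 kb, the 3 longest of the 9. Windows of 12 to below 15 kb, the class of sek-1, pmk-1, trf-1 and ikb-1, held a summit in 16.5% of genes, and those of 15 to below 20 kb, the class of nsy-1 and pik-1, in 22.1%. Within the 9 genes the order by length was not the order by peak number: sek-1, with a window of 14.3 kb, had 2 summits, while nsy-1 with 17.2 kb and pik-1 with 16.4 kb had 0, and tir-1 had fewer than tol-1. The part of length in the difference between the genes was not tested.

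**Figure D4:**
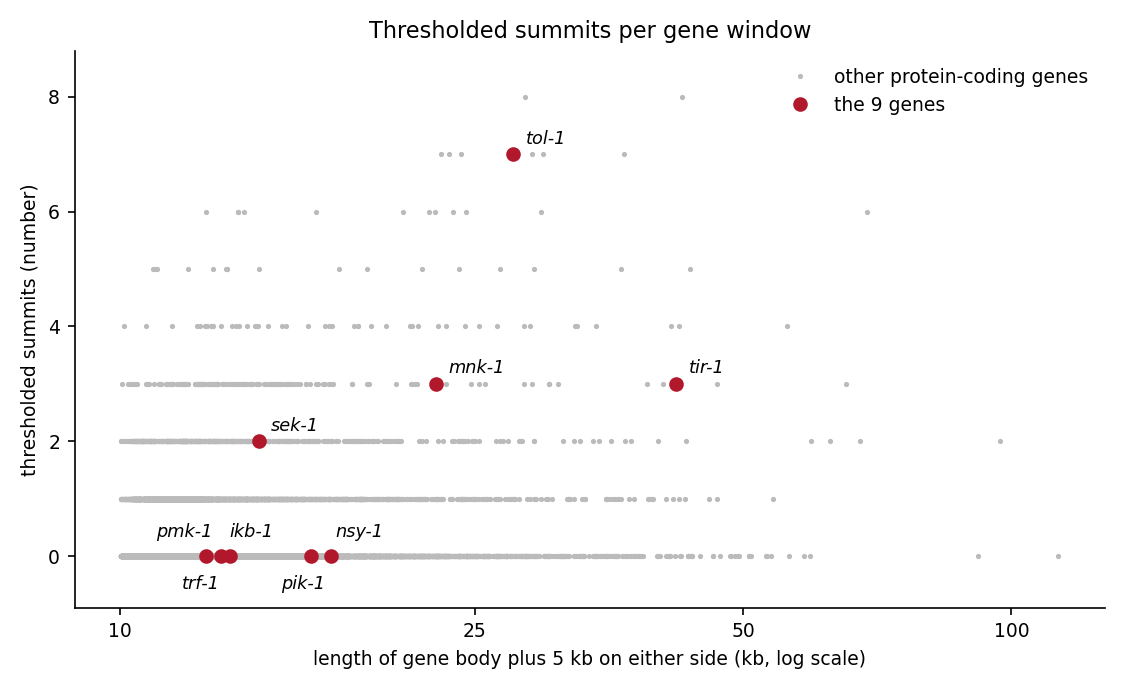
Number of thresholded summits (vertical) against the length of the gene body plus 5 kb on either side (horizontal, kb, log scale) for all 19973 protein-coding genes, with the 9 genes in red. The gene tol-1 stands at 7 summits in a 27.6 kb window, tir-1 and mnk-1 at 3, sek-1 at 2 and the other 5 at 0.

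The sequence within 75 bp of the 15 summits was searched for 6 words of 6 letters on either strand. AGGTCA, the core of many nuclear receptor sites, was present at 2 summits, the strongest of tol-1 and the weaker of sek-1, against 17.3% of all nuclear summits. Flanking windows of equal width, centred 400 bp to either side of all nuclear summits, held it in 3.53%. In the sek-1 case the match covered the summit itself, and in tol-1 it began 15 bp from it. GAGAGA was present at 3 summits, against 30.0% of all and 8.79% of the flanking windows. Neither share was read as different from that of the whole list, with only 15 summits.

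E-box words, which basic helix-loop-helix factors bind, were mostly CAGGTG. That word was present at 5 of the 15 summits, against 14.4% of all nuclear summits and 3.91% of windows of equal width centred 400 bp to either side. It was at the strongest tir-1 summit, at the mnk-1 summit near the 5′ end and at 3 tol-1 summits. The matches began 34 bp from the summit at tir-1, 33 bp at mnk-1 and 74, 62 and 52 bp at tol-1. For CAGGTG the width of the searched window was not varied. CACGTG was present at 1, the strongest of mnk-1, against 4.88% of all and 2.47% of the flanking windows. CAGCTG was present at 0 of 15, which allows a share of up to 20.0%, against 6.35% of all and 2.39% of the flanking windows.

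GGGTCA, which differs from the core word in its first letter, was added after these sequences had been seen. It was present at 4 of the 15 summits, against 12.4% of all nuclear summits and 2.33% of flanking windows. The 4 were the strongest of mnk-1, with 2 copies, the mnk-1 summit near the 5′ end, and the tol-1 summits 4488 and 2595 bp upstream. With AGGTCA and GGGTCA together, 6 of the 15 held a match, against 27.9% of all. At 12 of the 15 at least 1 of the 6 words was found, against 63.5% of all nuclear summits, and at 3 none was. A match says only that the letters are there. With only 15 summits, none of the word shares was read as different from that of the whole list.

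Other genes of these pathways were taken from a list of 50, written with earlier results of these data known. Of them, 12 (24.0%) had a thresholded summit in the body or within 5 kb, against 15.7% of all protein-coding genes. In the promoter window 3, mom-4, kgb-1 and malt-1, had a summit, against 4.16% of all. Longer windows held summits more often over all genes, and window length was not matched in this comparison. Nothing is read from these shares. Among the 13 other genes of p38-type cascades 3 had a summit. They were lit-1, a Nemo-like kinase with 4 summits and a strongest signal of 266, mom-4, a kinase of the TAK type with 2 and 295, and vhp-1, a phosphatase of MAP kinases, with 1. Both lit-1 and mom-4 are known for Wnt signalling in the embryo. Of 8 genes of JNK-type cascades, only kgb-1, itself a kinase of that type, had a summit, 393 bp upstream of its 5′ end with a signal of 75.3.

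Of the 10 transcription factors downstream in the list, 3 had a summit: daf-16, a FOXO factor, with a signal of 248 in an intron; atf-7, a bZIP factor that PMK-1 phosphorylates, with 226 at 3617 bp upstream of its 5′ end; and zip-2, another bZIP factor, with 88.4. Of the 14 genes upstream of or beside TIR-1, 3 had a summit. They were nsy-4, a claudin-like protein of the AWC choice, with a signal of 162, tpa-1, a protein kinase C, with 59.2, and plc-3, a phospholipase C, with 52.2. The tpa-1 peak ranked 1068 in replicate 1 but 11427 in replicate 2. Of the 5 relatives of Toll, IL-1 and NF-κB signalling, nfki-1, of the IκBζ type, had a signal of 219 downstream of the gene, and malt-1, a paracaspase, had 126. For the strongest summits of atf-7, zip-2, malt-1, kgb-1 and vhp-1 the gene itself had the nearest 5′ end. For those of mom-4, lit-1, daf-16, nsy-4, nfki-1, tpa-1 and plc-3 it was another gene; the plc-3 summit was 472 bp from the 5′ end of ref-1.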

How the data were processed

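The authors deposited region lists from ChIP-seq of 2 replicates, per the texts deposited with the libraries: candidate lists of 30000 regions for each replicate and for both together, called on ChIP reads against a control, and an IDR-thresholded list of 1861 peaks. The aligner, peak caller, versions and IDR threshold were not given in the sources used here. The deposited signal of a region is the authors' enrichment score, used here within a list only. The deposited −log10 q value was at its ceiling for 1832 peaks and was not used. Read numbers are not in the lists, so depth is unknown.

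Lists on ce11 were used, with Ensembl release 115 genes and RefSeq sequence of WBcel235; 0 region ends passed a chromosome end. Lists on ce10 were left out. Coordinates are 1-based. A member's place was exon of any transcript, then intron, upstream or downstream. Mitochondrial peaks were left out of shares. Python 3.11.15 was used, and the assignment was tested on simulated data. No test was made, because there is 1 group and the members and lists were chosen with earlier results of these data known. The genes named are all members, the gene with the nearest 5′ end to each of their summits, and up to 8 other pathway genes by signal; vhp-1, kgb-1, tpa-1, plc-3 and its neighbour ref-1 were named beyond these, after their values were seen. Replicates are biological ones per the labels. The alternatives tried covered the threshold, each replicate alone, replicate overlap, flank, promoter window, gene model and word window.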

Additional observations from a re-analysis of the deposited data

How the results depend on the processing

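Of 85 recomputed counts, 73 were within 1.5 times the reported value and 12 were not. The number of genes with a summit was 4 with each replicate alone and 3 with a flank of 2 kb, which left out sek-1. With a flank of 2 kb there were 9 summits at the genes, and with a flank of 10 kb 20 of the other pathway genes had a summit, as did 20 with the 3000 strongest candidate regions, which also put 11 summits in introns. The promoter count was 0 with the strongest 930 peaks, 0 with a window from 500 bp upstream to 100 bp downstream and 3 with every transcript start. No summit (0) was exonic with coding exons or the canonical transcript alone. With each replicate alone 1 to 2 were exonic: without replicate 1, the 3′ untranslated part of mnk-1 added 1, at rank 1700 of replicate 2. Within 150 bp of the summits AGGTCA was present at 5 and GAGAGA at 6, as a wider window must hold at least as many. With each replicate alone the rank of the strongest region was 11 to 14 at tir-1, 16 to 27 at mnk-1, 121 to 223 at tol-1, 149 to 207 at sek-1, 3281 to 4164 at trf-1, 2765 to 5793 at pik-1, 3235 to 4167 at ikb-1, 4556 to 8387 at pmk-1 and 9024 to 12441 at nsy-1; the cause was not tested. No paired analysis was possible because there is 1 group. Depth is unknown, so a gene without a peak had none detectable here.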

Other observations

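With 10 kb on either side, nsy-1 had 1 thresholded summit, 6432 bp upstream of its 5′ end, with a signal of 213 at rank 205; the nearest 5′ end was that of F59A6.2. No summit came within the wider flank of pmk-1, trf-1, pik-1 or ikb-1, so 5 of the 9 genes then had one.

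The mnk-1 gene had a run of weaker regions from its 3′ part to upstream sequence. In replicate 2 alone, 3 of them ranked within the first 1861: at 10542276 (rank 1288), at 10542966 (rank 1700) and at 10558723 (rank 1851). Within tol-1 a further intronic region, 4720 bp from the 5′ end, ranked 1536 in replicate 2. None of these 4 was in the thresholded list.

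The window at the strongest mnk-1 summit held an unbroken TG repeat of 26 bp, from 48 to 23 bp before the summit on the plus strand. A run of 8 or more TG or CA units lay within 75 bp of 21 of 1843 nuclear summits (1.14%), and this was the only 1 of the 15.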
